A study of Mus musculus with 9 samples.

Results

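Angiogenic growth factors and their receptors were followed across mouse ventricles in which phosphoinositide 3-kinase (PI3K) signalling had been raised or lowered. The genes were the vascular endothelial growth factors Vegfa, Vegfb and Vegfc, the platelet-derived growth factor chains Pdgfa and Pdgfb, angiopoietin 1 (Angpt1), the VEGF receptors Flt1 and Kdr, the co-receptor Nrp1, and the angiopoietin receptor Tek. They were taken as a list of 10 symbols, which was chosen with earlier results of these data known. Every probe set that the annotation of the array platform assigns to one of them was used. These genes are 10 of the 8252 genes that the annotation names, and they have 12 of the 12488 probe sets in the table, with a pair each for Nrp1 and Flt1. All 12 entered the test, and their lowest value on any array (91.8 intensity units, Angpt1 on caPI3K replicate 1) lay above the floor of 35.34 set in processing.

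The arrays are 1-colour oligonucleotide arrays, each hybridised with total RNA from the ventricles of 1 mouse, and every group has 3 mice. Mice of the caPI3K group were transgenic for a constitutively active PI3K, and per the labels their hearts were 20% larger than in wild-type littermates. Mice of the dnPI3K group were transgenic for dominant negative PI3K and had hearts smaller by 17%. NTG mice carried no transgene and were the controls of both groups. The labels call the animals transgenic and name no promoter, strain, sex or age. Each animal gave 1 array, so p-values measure the spread between these animals, and tissue level values cannot tell fewer cells of a type from less RNA per cell.

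VEGFA and VEGFB are secreted by cardiomyocytes and other cells. Both bind FLT1 on endothelial cells, whereas KDR, the main signalling receptor for endothelial growth, binds VEGFA and processed VEGFC, and NRP1 joins these complexes as a co-receptor. PDGF chains act mainly on fibroblasts, pericytes and smooth muscle cells through Pdgfra and Pdgfrb. Angiopoietin 1, made by cells around the vessel, activates the endothelial receptor TEK (TIE2) and stabilises vessels. PI3K acts below all of these receptors, and Vegfa is a classical target of hypoxia-inducible factors.

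Promoters of Vegfb, Pdgfa and Nrp1 are shown because these genes passed the test between the transgenic groups. The sequences are the 250 bases before the most upstream RefSeq start of each gene in GRCm38.p6, read 5′ to 3′ along the gene. Capitals mark the GC box (GGGCGG) and the core of the hypoxia response element (ACGTG or GCGTG), searched on both strands.
Vegfb, chr19:6987652-6987901, minus strand: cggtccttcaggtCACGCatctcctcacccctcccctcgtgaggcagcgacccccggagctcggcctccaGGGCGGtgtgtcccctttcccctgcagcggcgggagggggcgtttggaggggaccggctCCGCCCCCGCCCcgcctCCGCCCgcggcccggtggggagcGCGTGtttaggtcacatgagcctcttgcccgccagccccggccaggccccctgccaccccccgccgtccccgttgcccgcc
Pdgfa, chr5:138994945-138995194, minus strand: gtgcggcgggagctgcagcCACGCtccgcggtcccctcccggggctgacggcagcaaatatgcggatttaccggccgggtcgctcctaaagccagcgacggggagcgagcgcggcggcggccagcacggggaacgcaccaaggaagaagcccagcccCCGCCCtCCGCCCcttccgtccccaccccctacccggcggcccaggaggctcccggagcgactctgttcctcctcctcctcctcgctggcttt
Nrp1, chr8:128358823-128359072, plus strand: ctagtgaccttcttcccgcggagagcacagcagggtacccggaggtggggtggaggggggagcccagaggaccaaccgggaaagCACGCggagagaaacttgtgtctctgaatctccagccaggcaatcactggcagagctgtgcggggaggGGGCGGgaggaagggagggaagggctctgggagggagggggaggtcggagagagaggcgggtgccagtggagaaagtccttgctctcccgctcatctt

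The Vegfb window holds 4 GC boxes and 2 hypoxia cores, the Pdgfa window 2 and 1, and the Nrp1 window 1 and 1. Promoters of 8 of the 10 genes were found in the RefSeq table (Vegfa, Vegfb, Vegfc, Pdgfa, Nrp1, Kdr, Flt1 and Tek). A GC box lies in 7 of these 8 windows and in 32.7% of the 32851 windows of that length in the table. The hypoxia core lies in 5 of 8 and in 38.6% of all windows. The windows of Vegfa, Vegfc and Tek hold none. For the 3 genes whose sequences are shown the GC content is 76.4% (Vegfb), 72.4% (Pdgfa) and 64.4% (Nrp1), against a median of 52.4%. The FoxO core GTAAACA, the site of transcription factors that Akt inhibits, lies in 0 of 8 windows and in 3.17% of all. TATAAA lies in the Flt1 window and in 12.4% of all. A GC-rich window holds GC-rich motifs more readily, and a match describes letters, not binding.

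The dnPI3K arrays stood apart in their control probe sets. Read at its 3′ end, 18S ribosomal RNA averaged 6224 ± 2704 (SD, n = 3) in dnPI3K, 536 ± 118 in NTG and 519.6 ± 38.1 in caPI3K, and the geometric mean of bacterial and phage spike-in controls was 1790 ± 212, 2988 ± 369 and 3023 ± 272 in the same order. The Actb 3′ to 5′ ratio, a measure of RNA integrity, was 1.03 to 1.170 in caPI3K, 1.172 to 1.306 in NTG and 1.331 to 1.342 in dnPI3K. These ranges were apart in the same group order as Vegfb and Pdgfa, but caPI3K and NTG only narrowly so. The Gapdh ratio overlapped (0.788 to 0.877 over all arrays), and its mean was lowest in dnPI3K (0.808, against 0.836 in caPI3K and 0.853 in NTG). The part of RNA integrity in the results was not tested. Animal numbers in the titles form a lower series of their own in dnPI3K, whereas those of caPI3K and NTG animals lie next to each other from 2800 and from 3100. Number series and dnPI3K genotype cannot be told apart. Of the markers of ventricular muscle 9 were measured and none was dim, and their summed level spanned 223739 to 243001 in NTG, 223588 to 233714 in caPI3K and 218289 to 232411 in dnPI3K. Most of this sum comes from the brightest probe sets, which quantile normalization brings to nearly the same values on all arrays. It therefore cannot show equal muscle content. Actn2, the dimmest of the 9, was lower on every dnPI3K array than on any NTG array (log2 fold change -0.83 ± 0.220, limma adjusted p = 0.0914). In that comparison 2 of the 9 were above 0 and 7 below. Atrial markers varied within groups, with sums of 2626 to 22181 in NTG, 2878 to 14192 in caPI3K and 9245 to 11948 in dnPI3K. Of these 6 genes, the atrial light chains Myl4 and Myl7 fell in dnPI3K against NTG (log2 fold change -5.48 and -5.19, limma adjusted p = 0.04 and 0.0476). Their dnPI3K arrays read 27.9, 49.7 and 36.1 (Myl4) and 36.5, 142 and 42.2 (Myl7). Most of these lie near the floor of 35.34, so the sizes depend on the floor. Nppa and Sln went the other way, higher on every dnPI3K array than on any NTG array, and all NTG arrays of Sln lay below the floor. In that comparison 2 of the 6 were above 0 and 4 below. Nppa was lower in caPI3K than in dnPI3K (-2.22, adjusted p = 0.0282).

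Values by array are given first for the VEGF ligands, as normalized intensity and in the order of replicates 1 to 3. Vegfa, the main angiogenic ligand, read 509, 541 and 913 in caPI3K, 778, 783 and 868 in NTG and 1126, 926 and 1153 in dnPI3K. The dnPI3K arrays all lay above both other groups, and caPI3K replicate 3 lay above all NTG arrays while the other two caPI3K arrays lay below them.

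Vegfb, a ligand of Flt1 and Nrp1 that is abundant in heart muscle, read 2915, 2766 and 2497 in caPI3K, 3029.9, 3439.7 and 3602 in NTG and 5011, 4193 and 3962 in dnPI3K. The 3 groups were fully apart, in the order caPI3K, NTG, dnPI3K. Vegfc, the lymphatic growth factor, read 147, 167 and 132 in caPI3K, 189, 121 and 225 in NTG and 133, 147 and 144 in dnPI3K. Its NTG arrays spanned those of both other groups.

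Among the PDGF chains, Pdgfa read 819.5, 799 and 796 in caPI3K, 1038, 988 and 1077 in NTG and 1157, 1581 and 1595 in dnPI3K. As with Vegfb, no group overlapped another, and the caPI3K arrays differed among themselves by little (coefficient of variation 1.6%). Pdgfb, the chain that recruits pericytes to new vessels, read 268, 227 and 255 in caPI3K, 198, 180.5 and 296.5 in NTG and 321, 343 and 377 in dnPI3K. Only the dnPI3K arrays stood apart from the rest.

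Angpt1 read 91.8, 133 and 107 in caPI3K, 204, 205 and 181 in NTG and 146, 134 and 157 in dnPI3K. Every array of both transgenic groups lay below the lowest NTG array, and caPI3K lay below dnPI3K.

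Of the receptors, the Nrp1 probe set 95016_at read 1700.2, 1733 and 1782 in caPI3K, 1885, 1749 and 2162 in NTG and 2692, 2718 and 2828 in dnPI3K. The dnPI3K arrays were above all 6 others and close to each other. The second Nrp1 probe set, 92773_at, gave another picture, with 737, 1202 and 821 in caPI3K, 942, 716 and 1076 in NTG and 844, 699 and 830.0 in dnPI3K, and all groups overlapped. Kdr read 419, 321 and 433 in caPI3K, 568, 334 and 628 in NTG and 627, 662 and 691 in dnPI3K. All its caPI3K arrays lay below its dnPI3K arrays, while NTG replicate 2 lay within the caPI3K range and the other two NTG arrays below or within that of dnPI3K.

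The pair of probe sets for Flt1, the high-affinity VEGF receptor that also exists as a soluble trap, differed within the NTG group in the same way. Probe set 98452_at read 528, 559 and 566 in caPI3K, 473, 718 and 713 in NTG and 581, 656 and 669 in dnPI3K. Probe set 98453_at read 445.5, 430.3 and 371 in caPI3K, 352, 629 and 654 in NTG and 506, 299 and 391 in dnPI3K. In both, NTG replicate 1 was far below the other NTG arrays. Tek read 328, 364 and 389.9 in caPI3K, 353, 313 and 506 in NTG and 359, 374 and 246 in dnPI3K, with every group overlapping the others.

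**Figure D1:**
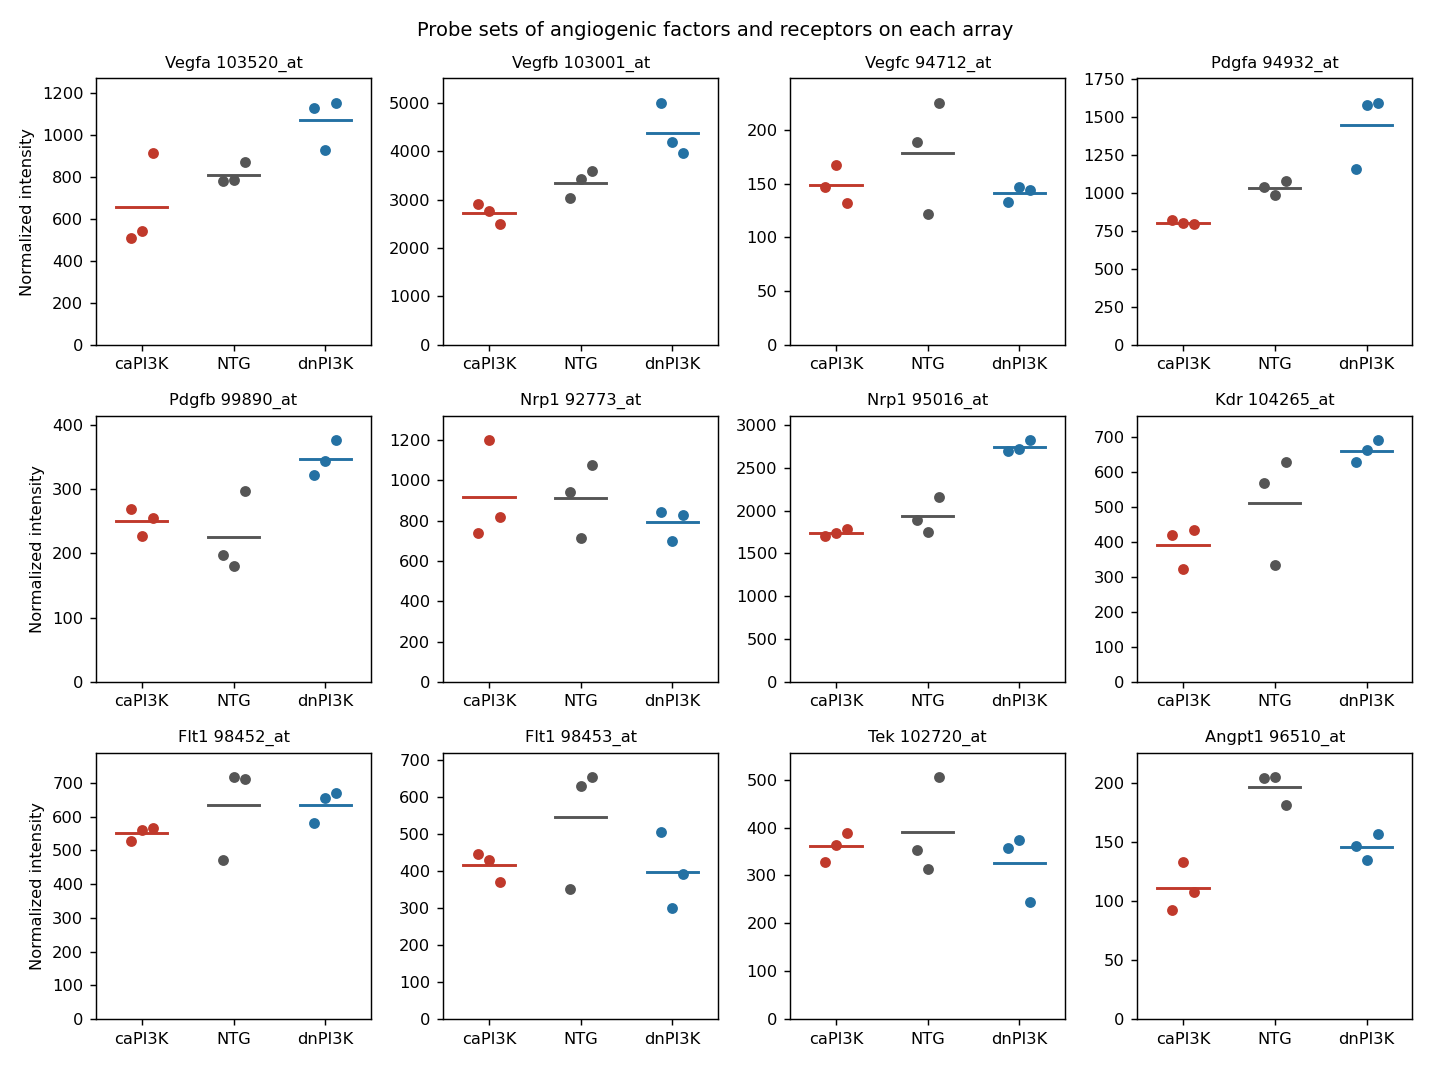
Normalized intensity (linear axis from 0) of the 12 probe sets in caPI3K, NTG and dnPI3K ventricles; each point is 1 array and the line is the mean of 3. Vegfb and Pdgfa step upward from caPI3K through NTG to dnPI3K without overlap, Nrp1 95016_at is high in dnPI3K alone, and Angpt1 is highest in NTG.

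The first comparison, caPI3K against NTG, asks which of these genes differed in the larger hearts. None of the 12 probe sets passed the threshold (limma with Benjamini-Hochberg adjustment over all 10645 probe sets tested, adjusted p under 0.05), in a comparison in which 0.0845% of all tested probe sets did. An unadjusted p under 0.05 was reached by 3, and 6.9% of all probe sets reached it. The lowest level relative to NTG was that of Angpt1, at 111 ± 20.7 against 197 ± 13.4 (log2 fold change -0.85 ± 0.249 SE, 95% interval -1.40 to -0.30, adjusted p = 0.481). Pdgfa was at 805 ± 12.9 against 1034 ± 44.5 (-0.36 ± 0.130, adjusted p = 0.592) and Vegfb at 2726 ± 212 against 3357 ± 295 (-0.30 ± 0.111, adjusted p = 0.618). For these 3 genes all caPI3K arrays lay below all NTG arrays, which was so, in either direction, for 12.1% of all tested probe sets and, in this direction, for 5.59%.

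The other 9 probe sets overlapped between these groups. Vegfa had a log2 fold change of -0.36 ± 0.201 and Kdr of -0.34 ± 0.227. The range over all 12 was -0.85 to 0.18, with a median of -0.26 beside a median of -0.00069 over all tested probe sets, and 10 were below 0. Within animals numbered from 2800 (2 per group) and from 3100 (1 per group) the difference was -0.89 and -0.76 for Angpt1, -0.32 and -0.44 for Pdgfa and -0.19 and -0.53 for Vegfb. Vegfa did not keep its direction, with -0.57 in the former and 0.07 in the latter. On caPI3K replicate 3, the array with high Vegfa, the atrial marker sum was 14192, against 3399 and 2878 on the other caPI3K arrays. Among NTG arrays the highest Vegfa came with the lowest atrial sum (2626 on replicate 3), and the part of atrial tissue in the result was not tested.

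The second comparison sets the smaller dnPI3K hearts against NTG. By probe set 95016_at, Nrp1 rose 1.43-fold over the NTG level of 1932 ± 210.5 and reached 2746 ± 72.0 with dominant negative PI3K (log2 fold change 0.51 ± 0.0936, 95% interval 0.31 to 0.72, adjusted p = 0.0216 by limma). It was the 1 probe set of 12 that passed, in a comparison where 2.18% of all tested probe sets passed and 1.01% passed as higher. An unadjusted p under 0.05 was reached by 4, against 14.8% of all. The second Nrp1 probe set was at -0.19 ± 0.200 (adjusted p = 0.732), so that the rise was seen by one of the pair. That call was lost without any single dnPI3K array or without NTG replicate 1 or 2, with adjusted p of 0.0552 to 0.0816 and a log2 fold change of 0.44 to 0.53.

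Both PDGF chains and 2 VEGF ligands were higher on every dnPI3K array than on any NTG array, without passing. Pdgfb was at 347 ± 27.97 against 225 ± 62.6 (log2 fold change 0.66 ± 0.225, adjusted p = 0.195), and Pdgfa at 1444 ± 249 against 1034 ± 44.5 (0.47 ± 0.130, adjusted p = 0.105). Vegfb was at 4389 ± 552 against 3357 ± 295 (0.38 ± 0.111, adjusted p = 0.121), and Vegfa at 1068 ± 124 against 809.7 ± 50.2 (0.39 ± 0.201, adjusted p = 0.401). With dnPI3K replicate 1 left out the difference of Pdgfa was 0.62 with an adjusted p of 0.0256, and with each array scaled to the same median that of Vegfb was 0.52 with an adjusted p of 0.0367. Each passed under only that 1 of 19 alternatives, and the limma adjusted p reached 0.309 for Pdgfa and 0.31 for Vegfb under others.

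Angpt1 was lower on every dnPI3K array (146 ± 11.3, log2 fold change -0.43 ± 0.249, adjusted p = 0.471). In all 6 probe sets, 5 higher and 1 lower, had no overlap between dnPI3K and NTG, as had 19.1% of all tested (9.91% higher and 9.21% lower). Kdr was at 0.42 ± 0.227 and overlapped with NTG, and without NTG replicate 2 it was at 0.14. Tek was at -0.25 ± 0.230, and at -0.06 without dnPI3K replicate 3 and -0.05 without NTG replicate 3. The Flt1 probe sets were at 0.02 ± 0.169 and -0.43 ± 0.260. The median of the 12 was 0.20 beside 0.0033 over all tested probe sets. Both comparisons with NTG share the same 3 control arrays, so Angpt1, lower in both, was measured against the same 3 values each time.

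**Figure D2:**
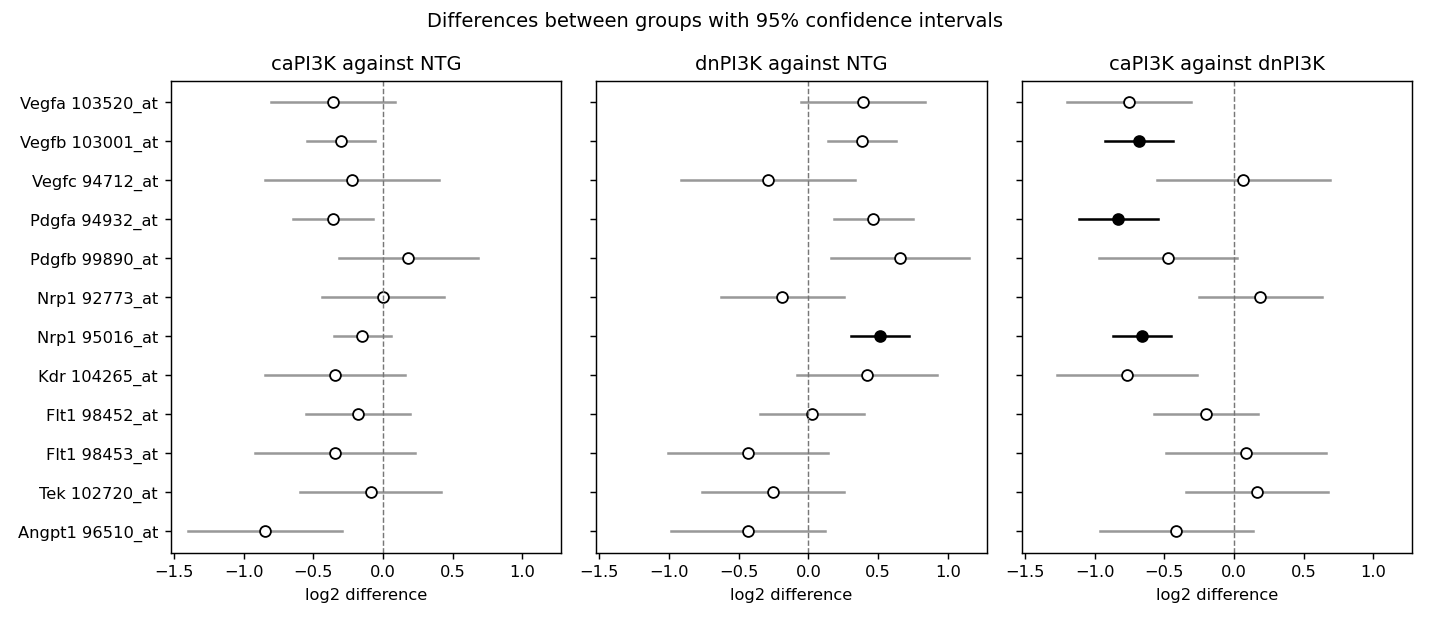
Difference of mean log2 intensity for each probe set in the 3 comparisons, with 95% confidence intervals from the limma fit; filled points passed at an adjusted p under 0.05. Filled points are Nrp1 95016_at in dnPI3K against NTG (0.51) and Vegfb (-0.68), Pdgfa (-0.83) and Nrp1 95016_at (-0.66) in caPI3K against dnPI3K.

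The third comparison sets the 2 transgenic groups against each other and uses the same transgenic arrays as the comparisons with NTG. Pdgfa, Vegfb and Nrp1 were lower in caPI3K than in dnPI3K. Pdgfa was 1.78-fold higher in dnPI3K, at 1444 ± 249 against 805 ± 12.9 (log2 fold change of caPI3K against dnPI3K -0.83 ± 0.130, 95% interval -1.11 to -0.54, adjusted p = 0.00678). Vegfb was 1.61-fold higher, at 4389 ± 552 against 2726 ± 212 (-0.68 ± 0.111, interval -0.93 to -0.44, adjusted p = 0.0084). Nrp1 by probe set 95016_at was 1.58-fold higher, at 2746 ± 72.0 against 1738 ± 41.0 (-0.66 ± 0.0936, interval -0.87 to -0.45, adjusted p = 0.00403). Among all probe sets tested 3.24% passed and 1.54% passed as lower, and among these 12 it was 3, all lower. An unadjusted p under 0.05 was reached by 5 of the 12 and by 16.4% of all.

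The Pdgfa and Nrp1 calls held under each of the 19 alternatives run for this comparison, among them every array left out in turn, and Vegfb under 18 of them. Vegfb had an adjusted p of 0.0722 without the intensity trend. The second Nrp1 probe set again differed, at 0.19 ± 0.200 (interval -0.25 to 0.63, adjusted p = 0.717).

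Vegfa and Kdr had differences of similar size with wider errors. Vegfa was at 654 ± 224 in caPI3K against 1068 ± 124 in dnPI3K (log2 fold change -0.75 ± 0.201, interval -1.20 to -0.31, adjusted p = 0.0776), and without caPI3K replicate 3 it was at -1.02 with an adjusted p of 0.00764. Kdr was at 391 ± 61.0 against 659.8 ± 32.2 (-0.77 ± 0.227, adjusted p = 0.107) and reached an adjusted p of 0.0292 without NTG replicate 2, an array outside this pair of groups that enters through the shared spread. With array weights, or with only these groups in the fit, it also passed (adjusted p = 0.0465 and 0.0369). Of the 19 alternatives Vegfa passed under 1 and Kdr under 3, and the limma adjusted p reached 0.233 for Vegfa and 0.297 for Kdr under others. Pdgfb (-0.47 ± 0.225, adjusted p = 0.329) and Angpt1 (-0.41 ± 0.249, adjusted p = 0.46) did not pass.

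In 8 of the 12 probe sets every caPI3K array lay below every dnPI3K array, and in 0 above, while 23.7% of all tested probe sets were apart, 12.3% lower and 11.4% higher. The 8 were those of Vegfa, Vegfb, Pdgfa, Pdgfb, Nrp1 95016_at, Kdr, Flt1 98452_at and Angpt1. For Flt1 98452_at the difference was small (-0.20 ± 0.169). Vegfc (0.07 ± 0.282), Tek (0.17 ± 0.230) and Flt1 98453_at (0.09 ± 0.260) overlapped, and their intervals reach from -0.56 to 0.69, from -0.34 to 0.67 and from -0.49 to 0.66, which leaves room for sizeable differences either way. The median of the 12 was -0.44 and that of all tested probe sets 0.00022.

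Over the 3 groups together, the moderated F of the limma fit passed for 3 of the 12, namely Nrp1 95016_at (adjusted p = 0.00783), Pdgfa (adjusted p = 0.0172) and Vegfb (adjusted p = 0.0221), and for 2.63% of all tested probe sets. Group means stood in the order caPI3K, NTG, dnPI3K for 6 of the 12 (Vegfa, Vegfb, Pdgfa, Nrp1 95016_at, Kdr and Flt1 98452_at), an order found in 19.1% of all tested probe sets. For Flt1 98452_at the means of NTG (634.7) and dnPI3K (635.3) differed by far less than their spread. With all arrays apart in that order there were 2 of 12, Vegfb and Pdgfa, and 0.479% of all tested.

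**Figure D3:**
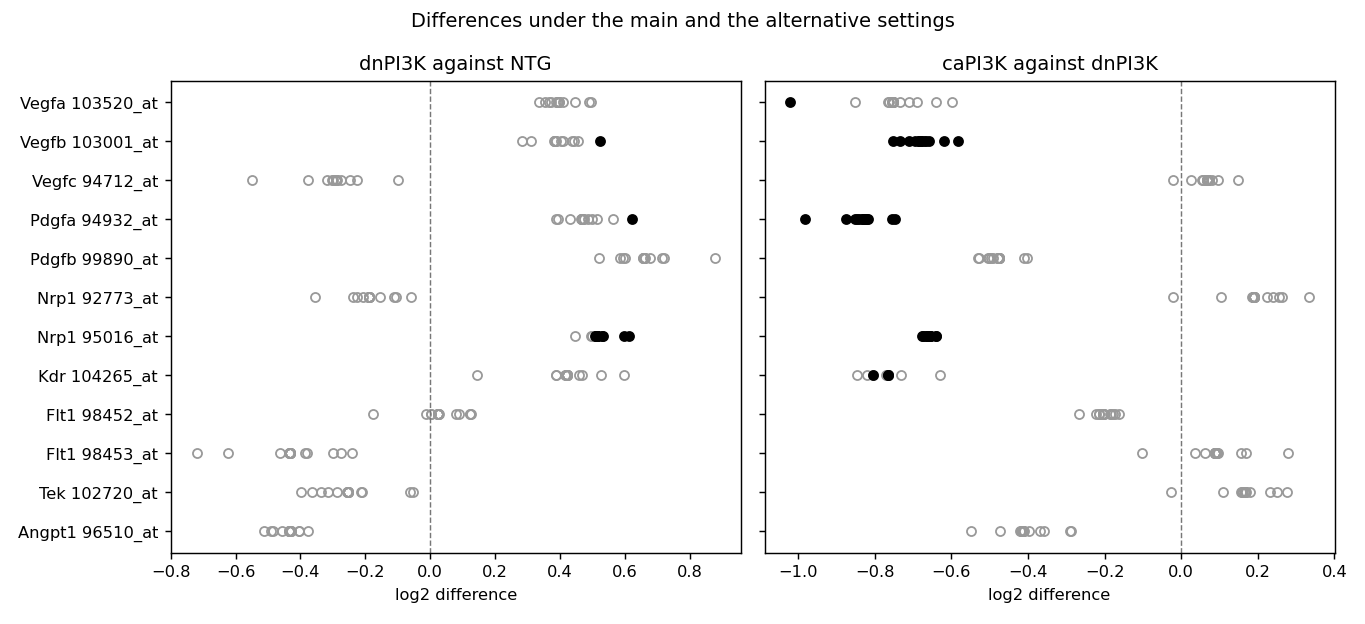
Log2 difference of each probe set under the main setting and each alternative (processing choices and 1 array left out at a time), for dnPI3K against NTG and caPI3K against dnPI3K; filled points passed at an adjusted p under 0.05. In caPI3K against dnPI3K, Pdgfa stays between -0.98 and -0.75, Vegfb between -0.75 and -0.58 and Nrp1 95016_at between -0.68 and -0.64.

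Markers of the cells that carry these receptors and ligands were read on the same arrays. Of 18 endothelial markers 14 were measured and none was dim, and their sum spanned 17248 to 19814 in caPI3K, 18002 to 18994 in NTG and 17816 to 19885 in dnPI3K. None of the 14 passed in any comparison. Pecam1, an adhesion molecule of endothelial cells, had log2 fold changes of 0.75 ± 0.327 in caPI3K and 0.44 ± 0.327 in dnPI3K against NTG, and Cdh5, the endothelial cadherin, of 0.16 ± 0.181 and -0.05 ± 0.181. In caPI3K against dnPI3K, however, 4 of the 14 were lower on every caPI3K array, as were Kdr, Nrp1 95016_at and 12.3% of all tested probe sets. The 4 were Tie1 (-0.48 ± 0.176), Vwf, the von Willebrand factor (-0.45 ± 0.151, adjusted p = 0.152), the sialomucin Emcn (-0.30 ± 0.126, adjusted p = 0.267) and the nitric oxide synthase Nos3 (-0.61 ± 0.454, adjusted p = 0.572). Over the 14 the median was -0.04, with 6 above 0 and 8 below. The part of endothelial cells in the values of Kdr and Nrp1 was not tested.

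Summed pericyte and smooth muscle markers differed between the groups. Their sum over 10 measured genes of 11 spanned 4758 to 5222 in caPI3K, 5850.4 to 6365 in NTG and 6956 to 7879 in dnPI3K, without overlap and in the order seen for Vegfb and Pdgfa. Smooth muscle actin (Acta2) passed in dnPI3K against NTG (log2 fold change 0.997 ± 0.175, adjusted p = 0.0176) and in caPI3K against dnPI3K (-1.56 ± 0.175, adjusted p = 0.00113), and smooth muscle myosin (Myh11) in the latter (-1.20 ± 0.261, adjusted p = 0.0334). Without Acta2 it spanned 3952 to 4150 in caPI3K, 4393 to 5177 in NTG and 4494 to 4985 in dnPI3K, so that only caPI3K stood apart. Cnn1 of this list was dim. Of the 9 genes tested, 6 were above 0 and 3 below in dnPI3K against NTG, with a median of 0.10. Those below were Rgs5 (-0.40), Mylk (-0.21) and Kcnj8 (-0.09). In caPI3K 1 was above 0 and 8 below, both against NTG (median -0.32) and against dnPI3K (median -0.25). The part of these cells in the values of Pdgfa, Pdgfb and Vegfb was not tested.

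The sum of fast skeletal muscle markers ran the other way, at 15269 to 22022 in caPI3K, 8657 to 12156 in NTG and 3847 to 4779 in dnPI3K over 11 genes, of which Myh1, Myh2 and Tnni2 were dim. Myl1 (log2 fold change -2.02 ± 0.249, limma adjusted p = 0.00325) and Casq1 (-1.84 ± 0.219, adjusted p = 0.00272) fell in dnPI3K against NTG, and both were higher in caPI3K than in dnPI3K (3.22 and 2.68). Most genes of this list were not higher in caPI3K than in NTG. Of the differences, 3 of 8 tested were above 0 and 5 below, with a median of -0.15, and Myh4 (-0.30), Tnnc2 (-0.39), Pvalb (-0.25) and Mylpf (-0.41) were among those below. Fibroblast sums (28038 to 33880.2 over all arrays, 10 genes) and blood sums (34829 to 53646, 11 genes) overlapped between the groups. Col1a1 of the fibroblast list was higher in caPI3K than in dnPI3K (log2 fold change 0.99, adjusted p = 0.018). In that comparison 7 of the 10 fibroblast genes were above 0 and 3 below, with a median of 0.15. On every caPI3K array 3 were higher than on any dnPI3K array, namely Col1a1, Col1a2 (0.24) and Col3a1 (0.64). In the same sense 2 were lower, namely Dpt (-0.38) and Fbln1 (-0.26). Of all tested probe sets 11.4% were apart as higher and 12.3% as lower. The part of skeletal muscle in these results was not tested.

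**Figure D4:**
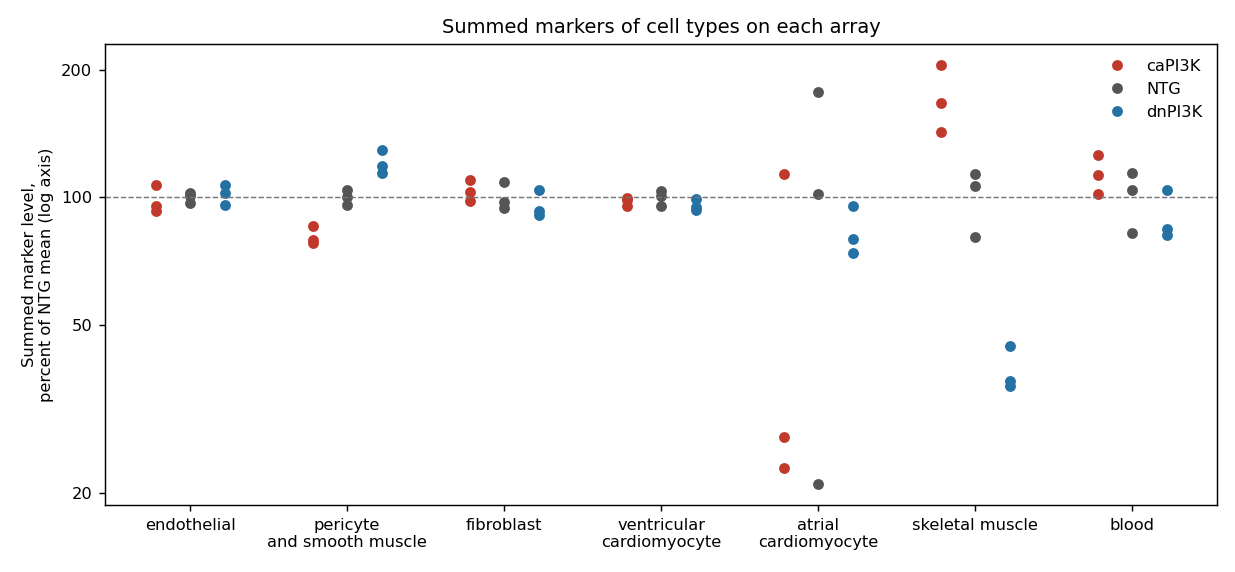
Summed normalized intensity of the markers of 7 cell types on each array, as percent of the NTG mean (log axis); each point is 1 array. Endothelial sums lie at 92.85 to 107.1 percent in all groups, pericyte and smooth muscle sums at 77.92 to 85.53 percent in caPI3K and 113.9 to 129 percent in dnPI3K.

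Other genes of the same pathways were counted from 3 lists, each gene by its brightest probe set. Of 19 tested partners of VEGF, PDGF and angiopoietin signalling none passed in any comparison, against 0.0845%, 2.18% and 3.24% of all tested probe sets. The PDGF receptor Pdgfrb, through which Pdgfb recruits pericytes, was at -0.49 ± 0.204 in caPI3K against NTG, 0.10 ± 0.204 in dnPI3K against NTG and -0.59 ± 0.204 in caPI3K against dnPI3K, the last with an adjusted p of 0.161 and arrays apart. The endothelial phosphatase Ptprb, which dephosphorylates TEK, was at 0.61 ± 0.170 in dnPI3K against NTG (adjusted p = 0.11) and -0.49 ± 0.170 in caPI3K against dnPI3K. Tie1, the partner receptor of TEK, was at -0.48 ± 0.176 in caPI3K against dnPI3K (adjusted p = 0.187). The adaptors Grb2 and Nck1 and the phospholipase Plcg1 were at 0.22 ± 0.159, -0.78 ± 0.501 and 0.52 ± 0.406 in caPI3K against NTG. Their limma adjusted p was 0.825, 0.81 and 0.839. All caPI3K arrays of Nck1 (18.35, 32.99 and 19.55) lay below the floor, so the size of its difference depends on the floor.

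Of 21 tested genes among other angiogenic factors, inhibitors and guidance signals, 1 passed in dnPI3K against NTG and 1 in caPI3K against dnPI3K. Among all tested probe sets 2.18% and 3.24% passed in these comparisons. Cxcl12, a chemokine that guides endothelial and progenitor cells, was lower in caPI3K (1645 ± 83.0) than in dnPI3K (2373 ± 113), with a log2 fold change of -0.53 ± 0.125 (adjusted p = 0.0479) that lost its call under 12 of 19 alternatives. Without any single caPI3K or dnPI3K array or NTG replicate 1 the adjusted p was 0.0649 to 0.159. The fibroblast growth factor receptor Fgfr3 was lower in dnPI3K than in NTG (log2 fold change -1.44 ± 0.310, adjusted p = 0.043). Its dnPI3K arrays (16.9, 33.1 and 33.0) all lay below the floor, so the size depends on the floor, and with the floor at the 5th percentile it was -1.86 and did not pass (adjusted p = 0.0711). Of the 9 fits with 1 array left out, the call held in 1, without caPI3K replicate 1, and the adjusted p of the other 8 was 0.0573 to 0.137. In caPI3K against NTG 0 of 21 passed, with Fgfr3 (-0.71), the arterial ephrin Efnb2 (0.38), the inhibitor Thbs2 (-0.50) and the lipid receptor S1pr1 (-0.51) at the smallest p.

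Among 23 tested genes of hypoxia signalling and its targets, 2 passed, both in caPI3K against dnPI3K and both lower in caPI3K. In that comparison 3.24% of all tested probe sets passed and 1.54% passed as lower. Pdk1, the kinase that shuts pyruvate out of the citric acid cycle, was at 559 ± 47.5 in caPI3K and 843 ± 77.1 in dnPI3K (-0.59 ± 0.135, adjusted p = 0.0412). Ndrg1, a stress-induced gene, was at 653 ± 60.3 and 995 ± 70.7 (-0.61 ± 0.144, adjusted p = 0.0479). Both calls were lost without any single caPI3K or dnPI3K array (adjusted p 0.0729 to 0.142 for Pdk1 and 0.0855 to 0.175 for Ndrg1), and that of Ndrg1 also without NTG replicate 2.

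The other hypoxia genes did not follow one direction. The glucose transporter Slc2a1 was higher on every dnPI3K array than on any NTG array (1.49 ± 0.399, adjusted p = 0.0953). On NTG replicate 1 Slc2a1 read 32.1, below the floor, so the size of its difference depends on the floor. Hif1a, the oxygen-sensitive subunit, was at 0.26 ± 0.120 in dnPI3K against NTG and at -0.32 ± 0.120 in caPI3K against dnPI3K. P4ha1, a collagen hydroxylase, was higher on every caPI3K array than on any NTG array (0.53 ± 0.164, adjusted p = 0.493), and Ddit4, an inhibitor of mTOR, was higher on every caPI3K than dnPI3K array (0.63 ± 0.255, adjusted p = 0.242). Over the 23 genes the median log2 fold change was -0.03 in caPI3K against NTG, 0.05 in dnPI3K against NTG and -0.10 in caPI3K against dnPI3K.

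Genes most like the leading probe sets were found by the root mean square difference of log2 values, each centred on its own mean, over the 9 arrays and among 7484 genes. Nearest to Nrp1 95016_at were the splicing coactivator Srrm1 (0.064), the copper chaperone Cox17 (0.079) and the matrix-associated Ltbp4 (0.080), where Nrp1 itself spread by 0.29 around its mean. Nearest to Pdgfa were Selenbp1 (0.10), Pgp (0.13) and St6galnac2 (0.14), with a spread of 0.36 for Pdgfa. Selenbp1 read 1004 ± 17.7 in caPI3K, 1292 ± 23.8 in NTG and 1711 ± 90.3 in dnPI3K, and Ltbp4 4656 ± 267, 4981 ± 65.2 and 7290.3 ± 351. No other member was among these nearest genes.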

How the data were processed

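The deposited table gives a linear intensity for each of 12488 probe sets on 9 arrays, which per the labels were scanned at a photomultiplier setting of 10%. For the software behind the intensities, a name was not given in the sources used here. Leaving out the lowest and highest 2%, the mean was 500.4 on every deposited array. No 2 arrays were identical. Precision is limited by 3 arrays per group.

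Values were quantile normalized, floored at their 20th percentile (35.34) and put on the log2 scale. Probe sets above the floor on at least 3 of 9 arrays, without 66 controls, were tested (10645). Group differences came from limma 3.58.1 in R 4.3.3 with an intensity trend, 1 fit of all 9 arrays, 6 residual degrees of freedom before moderation and Benjamini-Hochberg adjustment over all probe sets, two-sided. Errors are moderated SE, and means ± SD (n = 3) are of normalized intensities. The procedure was tested on simulated data. Symbols came from the platform annotation (10855 probe sets with 1 symbol, 396 with several, 1237 not listed), and all 10 matched RefSeq (GRCm38.p6), which also gave the promoters. Replicate numbers follow deposition order and pair no animals.

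Named genes are all members, genes of 3 pathway lists past the threshold or otherwise up to 4 with the smallest p, and the 3 most like up to 2 members of smallest F p. Marker lists covered endothelial, pericyte and smooth muscle, fibroblast, ventricular, atrial, skeletal muscle and blood cells. Members and lists were chosen with earlier results of these data known. Alternatives changed normalization, floor, filter, variance model, samples in the fit, an animal series block and arrays left out.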

Additional observations from a re-analysis of the deposited data

Results flagged for a closer look

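The difference of Vegfa in caPI3K against NTG, which did not pass (limma adjusted p = 0.776), pointed opposite ways in both series of animal numbers. How many of all tested probe sets reversed in this way was not counted. Each caPI3K array of animals numbered from 2800 lay below each NTG array of that series (log2 difference -0.57), and the caPI3K animal numbered from 3100 lay above its NTG counterpart (0.07). The difference of these effects was -0.65 ± 0.254 (SE), with an unadjusted p of 0.0345 and an adjusted p of 0.609 in the limma fit, and it rests on 1 animal per group in the second series. Pdgfb was opposite in the other sense, at 0.38 and -0.22, with a difference of 0.60 ± 0.400 (adjusted p = 0.765). Over all tested probe sets 2 of 10645 passed for this difference and 821 had an unadjusted p under 0.05.

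In the control probe sets, which no comparison used, the 3′ probe set for 18S ribosomal RNA averaged 6224 on dnPI3K arrays, above the NTG level of 536.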

How the results depend on the processing

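Between caPI3K and dnPI3K the count of angiogenic probe sets past the threshold, 3, stayed at 2 to 4 under all 19 alternatives. In caPI3K against NTG it was 0 under all 20. In dnPI3K against NTG the 1 call became 2 with arrays scaled to the same median, and 0 without the intensity trend or with only the 2 groups in the fit, and it was 0 to 1 with 1 array left out. The 3 calls of the F test became 1 with no filter on dim probe sets and 0 without the trend, and were 1 to 3 with 1 array left out.

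Other genes of the pathways past the threshold numbered 1 in dnPI3K against NTG. This became 2 with the deposited values and 0 when the floor lay at percentile 5 or 40, without a filter, only probe sets above the median, no trend or only the 2 groups, and it was 0 to 1 with 1 array left out. In caPI3K against dnPI3K the 3 became 1 with median scaling or the floor at percentile 5 and 0 with no filter or no trend, and 0 to 3 with 1 array left out.

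Over all probe sets the calls ranged from 0 to 20 (main 9), 82 to 285 (main 232) and 134 to 527 (main 345) for the larger hearts against NTG, the smaller against NTG and both transgenic groups. Signs turned only for values that did not pass. Nrp1 92773_at in caPI3K against NTG was at -0.0036 with the deposited values. Within animal series, a setting added after seeing the data, Vegfa was at 0.073, Pdgfb at -0.22 and Nrp1 92773_at at -0.39 from 3100, and Vegfc at 0.050 and Tek at 0.056 from 2800. With 1 array left out, caPI3K against NTG ranged from -0.21 to 0.14 for Nrp1 92773_at and -0.23 to 0.11 for Tek, Flt1 98452_at in dnPI3K against NTG from -0.18 to 0.13, and caPI3K against dnPI3K from -0.022 to 0.15 for Vegfc, -0.021 to 0.33 for Nrp1 92773_at, -0.10 to 0.28 for Flt1 98453_at and -0.025 to 0.28 for Tek. The cause was not tested. No paired analysis was possible because the labels give no replicate numbers that match single animals across groups, but caPI3K and NTG share animal number series. With that series as a block, 0 angiogenic probe sets and 8 of all probe sets passed in caPI3K against NTG. Intensities give no read depth, and all 12 probe sets lay above the floor.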
